A study of Mus musculus with 4 samples.

Results

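Mesenchymal cells of the tibial muscle were compared across all genes between uninjured muscle (Uninjured) and muscle 1 day after injury (1 day post injury, 1 dpi). Cells were taken from raw UMI counts (UMIs count captured RNA molecules) by 3 conditions: at most 10% of UMIs from mitochondrial genes, at least 0.5% of UMIs from *Col1a1*, *Col1a2*, *Col3a1* and *Dcn* together, and 0 UMIs of *Ptprc*, *Cdh5* and *Pax7*, which mark leukocytes, endothelial cells and muscle progenitors. The gate held 9346 of 12031 barcodes in Uninjured (77.7%) and 3903 of 11722 at 1 dpi (33.3%), 13249 of 23753 in both libraries, in a series of 62665 barcodes from 4 libraries. Every mouse was labelled C57BL/6, 6-8 weeks old and *Nse-Bmp4*, the Uninjured ones included, so no wild-type muscle is in the comparison. *Nse-Bmp4* is a transgene in which the promoter of neuron specific enolase, a neuronal promoter, drives BMP4, and injured muscle of these mice forms heterotopic bone. Injury was by cardiotoxin, and each library was made from collagenase-digested cells of 3 mixed tibial muscles. With 1 pooled library a side, spread between animals could not be measured, no test of a difference between conditions was possible, and injury cannot be told apart from anything else that differed between these libraries. All intervals below are 95% exact intervals that cover the counting of UMIs or cells only.

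Mesenchymal cells of skeletal muscle, also called fibro-adipogenic progenitors, lie between the fibres, carry PDGFRα and make most of the interstitial matrix. After injury they are among the first cells to sense damage, they secrete cytokines and chemokines that act on incoming leukocytes, and they then divide before they are cleared or differentiate. Interferons signal through their receptors and transcription factors of the STAT and IRF families to a shared set of antiviral and antigen presentation genes, and interferon response is known in fibroblasts as well as in leukocytes.

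The gate was checked against mesenchymal genes that it did not use. *Pdgfra*, the receptor that defines these cells, had a UMI in 86.4% of gated cells in Uninjured and 83.8% at 1 dpi. After every cell was thinned to 2000 UMIs the shares were 47.4% and 57.5%, against 0.826% and 1.77% in B cells, which should lack the gene and stand here for RNA free in the suspension. Median depth was 9229 UMIs and 2907 genes a cell in Uninjured and 7753 UMIs and 2678 genes at 1 dpi. The median mitochondrial share was 1.71% and 3.67%, and the median share of the 4 gate genes was 3.72% and 2.24%. Few cells lay near the limit on the gate share: 18 and 82 cells had a gate share of 0.5 to 0.6%, and 14 and 48 cells fell just below, at 0.4 to 0.5%. At the mitochondrial limit, 21 and 90 gated cells were at 9 to 10%, and 25 and 65 cells lay just above, at 10 to 11%. A *Ptprc* UMI alone left out 218 and 568 cells. As a description of the gate, *Col3a1* was at 10694 UMIs per 1000000 UMIs of the gated cells (CPM) in Uninjured and 4499.7 at 1 dpi, and *Col1a1* at 4821 and 2042.

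The libraries differed around these cells. Leukocytes made up 10.2% of barcodes in Uninjured and 43.6% at 1 dpi, and 30 barcode sequences occurred in both libraries, 8 of them in gated cells of both. In the gated cells all 8 neutrophil markers were detected at 1 dpi, and their summed level was 4.06 CPM in Uninjured and 226 at 1 dpi. The summed level of the 8 monocyte and macrophage markers was 11.3 and 64.7 CPM, that of the 5 B cell markers 7.83 and 111, and that of the 6 NK and T cell markers 1.90 and 5.61. Other lists moved the other way or little: erythroid markers 219 and 7.04 CPM, Schwann cell markers 120.5 and 64.1, pericyte and smooth muscle markers 172 and 111, endothelial markers 3.62 and 4.16, tenocyte markers 363 and 365. *S100a8*, a neutrophil gene, was at 68.4 CPM in the gated cells at 1 dpi and 10159.9 in leukocytes. Leading genes below had at least 20 CPM in the higher library, at least 10 UMIs in the lower, a UMI in at least 5% of the cells of the higher library, and a level there no lower than in leukocytes. The last limit left out 25 higher genes, *Ngp*, *Camp*, *S100a9*, *S100a8*, *Ccl4* and *Il1b* among them, and 4 lower ones (*Hbb-bs*, *Hba-a1*, *Hba-a2* and *Acta2*). Members of gene lists were not limited in this way.

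The study asked how the inflamed lesion acts on mesenchymal stem cells, and this comparison covers its first day. The gated cells held 96209717 UMIs in Uninjured and 35817823 at 1 dpi. Of 8797 genes with at least 10 CPM in the higher library, 380 (4.32%) were at least 2-fold higher at 1 dpi and 182 (2.07%) at least 2-fold lower, and 77 and 36 passed 4-fold. These shares are the background for the gene lists that follow, and "rose" and "fell" below mean past 2-fold in this comparison of 2 libraries. The median gene was 0.16 higher on the log2 scale, with the middle 50% of genes between -0.21 and 0.48. When every ratio was divided by that median, 249 genes were higher and 271 lower, so that higher genes made up 47.9% of calls instead of 67.6%. The scatter of the 2 libraries shows how far the leading genes lie from the diagonal.

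**Figure D1:**
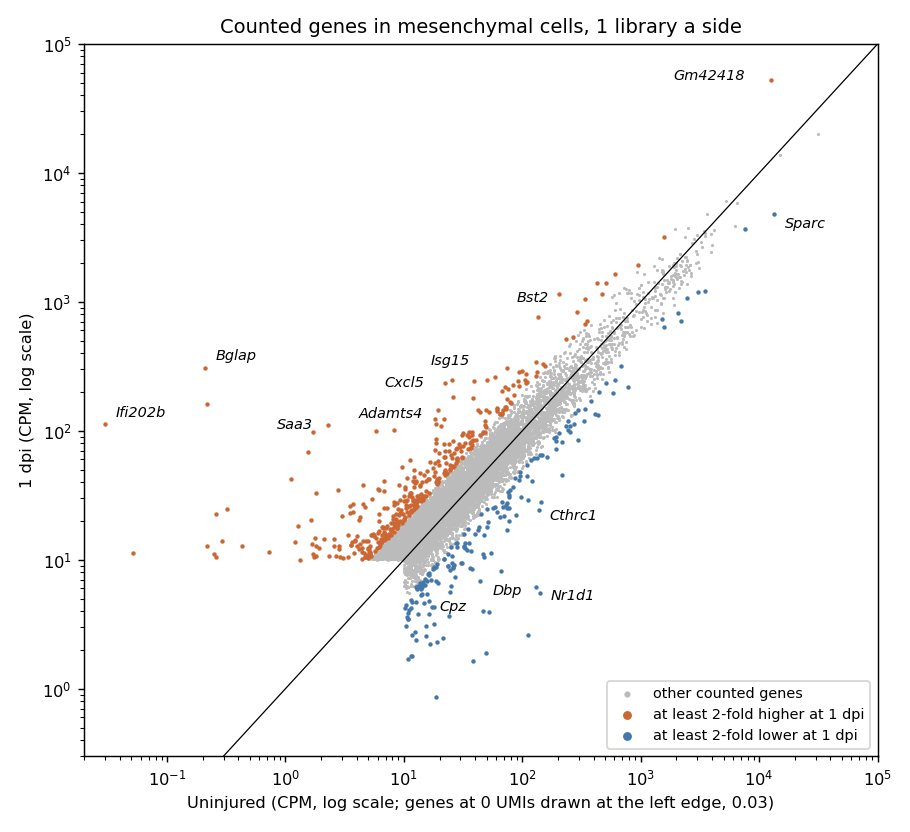
Level of each of the counted genes in mesenchymal cells of Uninjured (horizontal axis, CPM, log scale) and 1 dpi muscle (vertical axis, CPM, log scale), with genes at least 2-fold higher at 1 dpi in orange and at least 2-fold lower in blue. *Ifi202b*, without a UMI in Uninjured, stands apart at the left edge and *Bglap* (0.208 CPM in Uninjured) to the right of it. *Nr1d1* and *Dbp* lie far below the diagonal.

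Interferon-induced genes led the higher side. Of the 15 leading genes with the largest ratios, *Ifit1*, *Ifit3*, *Oasl2*, *Bst2*, *Iigp1*, *Gbp3* and *Slfn9* belong to families known to be induced by interferon. *Ifit1*, which binds viral RNA that lacks the host cap structure, was at 19.5 CPM in Uninjured (1875 UMIs) and 146 CPM at 1 dpi (5212 UMIs), 7.47-fold higher (7.08 to 7.88). *Bst2*, the tetherin that holds budding virus at the membrane, went from 136 to 769 CPM, 5.67-fold (5.55 to 5.79). *Iigp1*, a GTPase that attacks the vacuoles of intracellular parasites, was 6.21-fold higher (38.9 and 242 CPM). The shift was spread over cells: in cells thinned to 2000 UMIs, *Ifit1* had a UMI in 3.02% of cells in Uninjured and 16.97% at 1 dpi, against 0.826% and 2.25% of B cells. *Bst2* had one in 22.1% and 48.7%, against 11.6% and 13.7% of B cells. The thinned B cells numbered 121 in Uninjured and 1245 at 1 dpi. *Bst2* was at 72.0 and 181 CPM in B cells, and whether they make these transcripts themselves was not tested. For interferon-induced genes they therefore give no clean level of free RNA.

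Promoters of interferon-induced genes are known for an element that binds a complex holding IRF9, the interferon-stimulated response element (ISRE). Windows from 250 bases before to 50 bases after each RefSeq start site (GRCm38.p6) were searched on both strands for GAAA and GAAA with any 2 bases between them. It was found for 1079 of 27025 genes with a window (3.99%), for 7 of the 11 leading higher genes that had one (63.6%) and for 1 of the 10 leading lower genes (*Mfap2*). The NF-kB letters GGGA and TTTCC with 1 base between them were in none of the 11 and in 0.466% of all genes. A match is a description of the letters, not evidence of binding. The stretches around the matches are printed 5′ to 3′ along the gene's own strand, with the matched letters, some of them overlapping, in capitals (TTTC at the ends where the match lies on the other strand), for 6 of the genes that were at least 5-fold higher.
Ifit1, chr19:34640760-34640838, + strand: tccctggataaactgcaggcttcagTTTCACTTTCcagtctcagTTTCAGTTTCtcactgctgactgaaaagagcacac
Ifit3, chr19:34583348-34583441, + strand: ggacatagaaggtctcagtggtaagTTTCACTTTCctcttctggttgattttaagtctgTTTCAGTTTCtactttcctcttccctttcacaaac
Isg15, chr4:156200850-156200921, - strand: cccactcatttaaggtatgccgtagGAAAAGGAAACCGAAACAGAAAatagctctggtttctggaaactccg
Bst2, chr8:71537562-71537627, - strand: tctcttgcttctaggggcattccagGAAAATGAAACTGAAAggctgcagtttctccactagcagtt
Gbp3, chr3:142559974-142560039, + strand: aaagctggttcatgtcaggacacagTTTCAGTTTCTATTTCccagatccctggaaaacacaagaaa
Apol9a, chr15:77411099-77411164, - strand: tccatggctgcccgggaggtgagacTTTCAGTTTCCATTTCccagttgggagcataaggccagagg
The window of *Apol9b* at chr15:77729010-77729075 (+ strand) has the same letters as that of *Apol9a*. These neighbours are near-identical copies, so the split of reads between them is uncertain: *Apol9a* was 8.37-fold higher (4.51 and 37.7 CPM) and *Apol9b* 7.22-fold (3.01 and 21.7 CPM).

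The interferon lists as a whole lay above the background. All 13 interferon-stimulated genes on the list that were measured passed the 10 CPM limit, 12 rose and none fell, and their median log2 ratio was 2.50 against 0.16 over all genes. *Isg15*, a ubiquitin-like protein that is joined to viral and host proteins, was at 25.5 CPM in Uninjured and 249 at 1 dpi. *Irf7*, the factor that amplifies interferon transcription, was at 26.1 and 182 CPM. *Rsad2*, an antiviral enzyme, was at 2.80 and 34.7 CPM. Leukocytes of the 1 dpi library were higher than mesenchymal cells in these 3 genes, for example *Isg15* at 413 CPM and *Rsad2* at 217, and the part of leukocyte RNA in their levels was not tested. *Ifit2* was the member that did not pass (15.6 and 29.1 CPM). Of 11 interferon gamma induced genes, 8 rose and none fell (median 1.43), while *Irf1* (238 and 243 CPM) and *Cxcl10* (153 and 163) were close to level. In the MHC class I list 2 of 9 rose, the peptide transporter *Tap1* (15.6 and 48.6 CPM) and its partner *Tapbp* (149 and 328), with a median of 0.68.

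Summed over the interferon-stimulated list, mesenchymal cells held 355 CPM in Uninjured and 1934 CPM at 1 dpi, 5.45-fold. At 1 dpi the sum was 2261 CPM in leukocytes and 754 in B cells. The same sum was 4.36-fold higher in *Pax7*-positive muscle progenitors of the same libraries, 2.81-fold in leukocytes, 2.76-fold in B cells and 1.39-fold in endothelial cells. Per cell, at 2000 UMIs, the mean was 0.741 UMIs of the list in Uninjured and 3.22 at 1 dpi, and the median 0 and 2. At least 5 UMIs were found in 133 of 9137 cells (1.46%) and in 905 of 3583 cells (25.3%), against 0% and 4.98% of B cells. The distribution at 1 dpi was broad, since the 10% of cells with most of these UMIs held 39.1% of them.

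**Figure D2:**
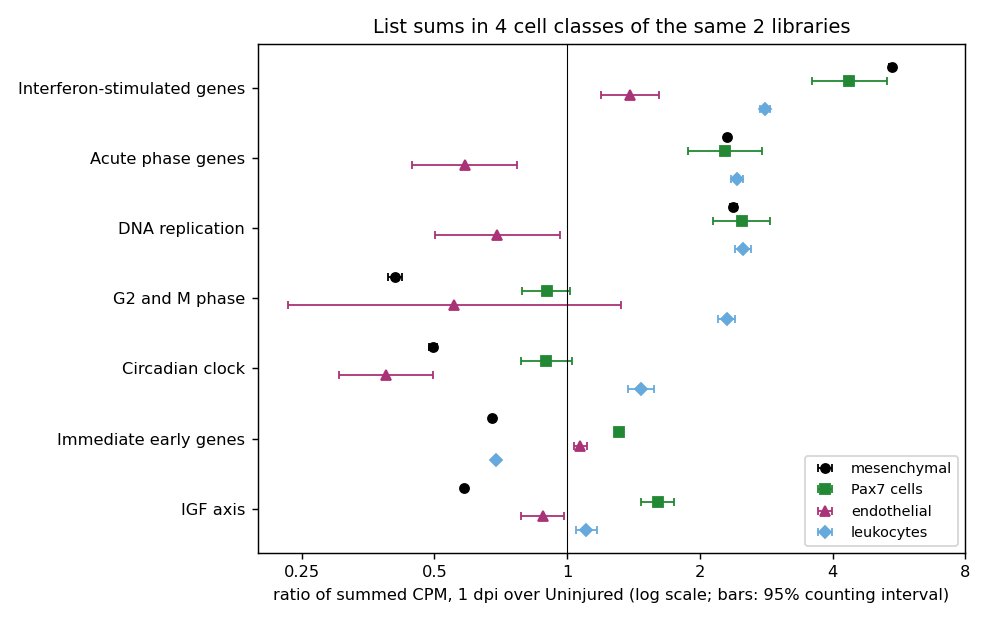
Ratio of summed CPM at 1 dpi over Uninjured (horizontal axis, log scale, bars 95% counting intervals) for 7 gene lists in mesenchymal cells (circles), *Pax7* cells (squares), endothelial cells (triangles) and leukocytes (diamonds) of the same libraries. The interferon-stimulated sum in mesenchymal cells lies at 5.45, above the other classes drawn, and the G2 and M phase sum lies below 1 in mesenchymal cells and above 1 in leukocytes.

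*Ifi202b*, an interferon-inducible DNA sensor of the Ifi200 family (chr1:173962568-173982744, GRCm38), had the largest contrast of all counted genes. It had 0 UMIs in Uninjured and 4017 UMIs at 1 dpi, 112 CPM, 3597-fold higher when 0 was set to 3 UMIs. The lower limit of the exact interval was 2924-fold. Over all barcodes of each library it had 0 UMIs in Uninjured, 8840 at 1 dpi, 11 at 3 dpi and 0 at 7 dpi, and it was the one gene with at least 800 UMIs at 1 dpi and at most 20 in each other library. In thinned cells 15.9% of mesenchymal cells had a UMI, against 2.33% of B cells, and leukocytes of the 1 dpi library held 84.1 CPM. Other members of the family on the same stretch of chromosome 1 had smaller ratios. The more abundant ones were under 3-fold: *Ifi203* was at 67.9 and 203 CPM, *Ifi204* at 229 and 407, *Mndal*, whose annotated span overlaps *Ifi203*, at 60.8 and 149, and *Ifi205* at 366 and 348. Members with few UMIs had larger ratios but stayed under the 10 CPM limit: *Ifi208* (10 and 169 UMIs, 45.4-fold), *Ifi206* (5 and 69 UMIs, 37.1-fold) and *Ifi209* (19 and 118 UMIs, 16.7-fold). Members of the family are similar in sequence, so reads may be split among them. *Ifi202b* is known to differ in expression between inbred strains and to be low in C57BL/6, the strain on every label. Whether the muscles of the 1 dpi library differed in genetic background from the others was not tested, and injury and library cannot be told apart here.

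Genes of matrix turnover and of chemokine signalling also led. *Adamts4*, an aggrecanase that cleaves aggrecan and versican, headed the leading genes: 8.32 CPM in Uninjured (800 UMIs) and 101 at 1 dpi (3616 UMIs), 12.1-fold (11.2 to 13.1). It had a UMI in 1.31% and 11.3% of thinned cells, was at 145 CPM at 3 dpi and 29.7 at 7 dpi, and was also 14.01-fold higher in *Pax7* cells (5.90 to 40.4). *Adamts9*, of the same family, was 6.31-fold higher (3.72 and 23.5 CPM). *Cxcl5*, a chemokine that draws neutrophils through CXCR2, went from 22.4 to 235 CPM, 10.5-fold (9.98 to 10.97). Its source was narrow: at 1 dpi the 1% of cells with the most *Cxcl5* UMIs (39 cells) held 65.98% of them, and 527 came from 1 cell. In Uninjured 9 cells held at least 50% of its UMIs. Within bands of the gate share the contrast was smaller, at 228 CPM in Uninjured and 1038 at 1 dpi in cells whose gate genes made up 0.5 to 1% of UMIs, 136 and 180 at 1 to 2%, and 4.24 and 10.7 at 2% or more. Cells of the lowest band also differed between the libraries in markers of other cell types, as given below. *Cxcl13*, the ligand of CXCR5 on B cells, was 4.72-fold higher (38.1 and 179.7 CPM). Its source was narrow too: 93 cells held 59.7% of its UMIs in Uninjured, and 39 cells held 56.2% at 1 dpi. Without these cells *Cxcl13* was 5.12-fold higher. *Aldh1a2*, which makes retinoic acid, was 4.96-fold higher (50.2 and 249 CPM), with a UMI in 7.97% and 24.4% of thinned cells, and was at 17.9 CPM at 7 dpi.

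**Figure D3:**
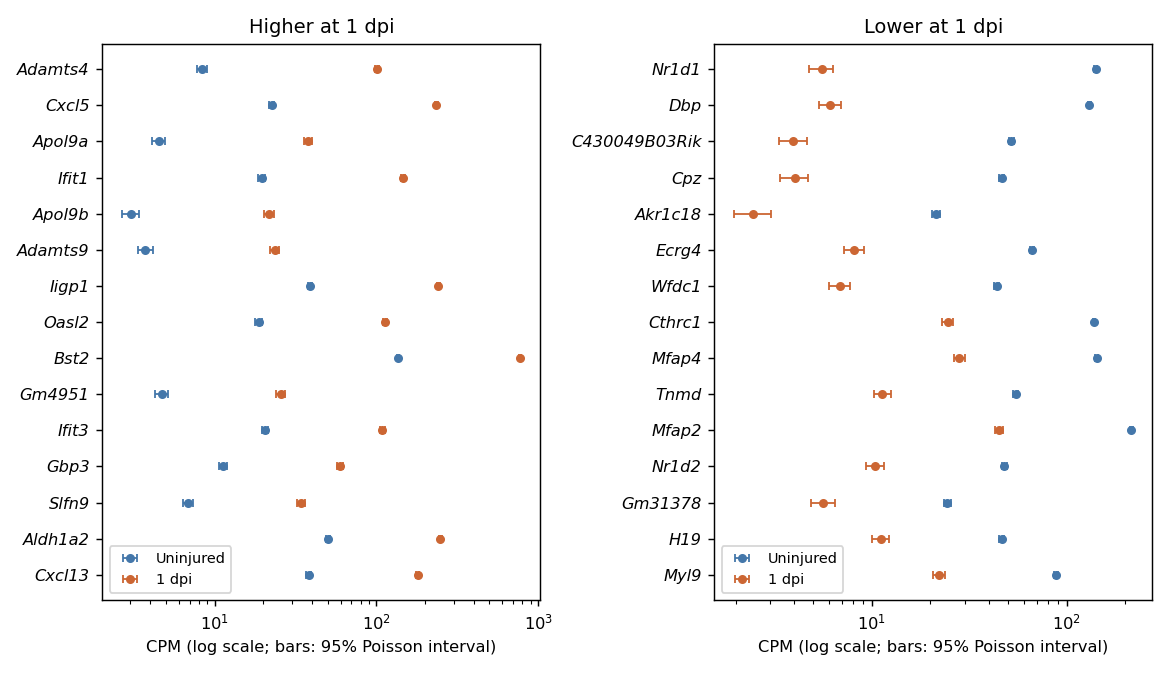
Level in mesenchymal cells (horizontal axes, CPM, log scale, bars 95% Poisson intervals) of the 15 leading genes with the largest ratio (left) and the 15 with the smallest ratio (right) in Uninjured (blue) and at 1 dpi (orange), in order of the ratio. The gap runs from *Adamts4* at 8.32 and 101 CPM to *Cxcl13* on the left, and is widest on the right for *Nr1d1* at 141 and 5.53 CPM.

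Acute phase genes rose together. Of 7 counted members 5 rose and none fell, with a median log2 ratio of 1.17. *Saa3*, a serum amyloid A made outside the liver, was at 2.28 CPM in Uninjured and 110.2 at 1 dpi, with 74.3% of its 1 dpi UMIs in 39 cells. *Lcn2*, which binds bacterial siderophores, was at 21.8 and 123 CPM, with 1128 in leukocytes at 1 dpi, and the protease inhibitor *Serpina3n* at 76.2 and 212. C/EBP factors are known to drive acute phase genes, and TTGCNNAA, searched on both strands, was in the window of 7 of the 8 members with a promoter (87.5%), against 12.2% of all genes. The stretches of the most changed members are given with the match in capitals.
Saa3, chr7:46715743-46715800, - strand: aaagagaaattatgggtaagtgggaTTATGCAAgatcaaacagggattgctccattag
Lcn2, chr2:32387923-32387980, - strand: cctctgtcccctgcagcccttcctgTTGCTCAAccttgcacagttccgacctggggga
The summed level of the list was 2.31-fold higher in mesenchymal cells, 2.28-fold in *Pax7* cells and 2.43-fold in leukocytes. Of 9 complement genes 2 rose, factor B (*Cfb*, 74.1 and 306 CPM) among them, and *C3* was at 935 and 1708 CPM.

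Cytokine, receptor and signalling genes moved less as groups. Of 7 genes of the interleukin 6 family 2 rose, *Il6* itself (60.5 and 147 CPM) and *Osmr*, the oncostatin M receptor (35.2 and 89.03). In the STAT and SOCS list 4 of 11 rose, *Stat2*, *Stat5a* and *Pim1* among them, whereas *Stat3* was at 85.3 and 159 CPM and the feedback inhibitor *Socs3* at 708 and 767. Of 13 NF-kB genes 2 rose, *Tnfaip3* (18.1 and 44.7 CPM) and *Nfkb2* (24.4 and 50.8), while the immediate inhibitor *Nfkbia* was at 654 and 479.9. Among chemokines of the monocyte list 1 of 6 rose and *Ccl2* was at 521 and 649.8 CPM. Within each band of the gate share *Ccl2* was lower at 1 dpi. It was at 3795 and 1922 CPM at 0.5 to 1%, 1664 and 741 at 1 to 2%, and 319 and 182 at 2% or more. Its log2 ratio ran from -0.81, at a gate share of at least 2%, to 1.38 in cells with *Smoc2* or *Hsd11b1* UMIs only, so its direction depended on the cells used. *Cxcl1*, which shares its receptor with *Cxcl5*, was at 1213 and 672 CPM. In the lymphocyte list 3 of 9 rose, *Cxcl13*, *Ccl19* (19.7 and 54.1 CPM) and *Cxcl12* (107 and 276). Of the 13 receptors that the study paired with immune ligands 2 rose, *Osmr* and *Sdc4* (109 and 239 CPM), with *Ifngr1* at 262 and 259 and *Tnfrsf1a* at 119 and 124.

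Genes of the circadian clock led the lower side. *Nr1d1* (REV-ERBα), a repressor within the circadian feedback loop, had 13527 UMIs in Uninjured and 198 at 1 dpi, 141 and 5.53 CPM, 25.4-fold lower (22.1 to 29.4). *Dbp*, an output factor of the clock, went from 130.1 to 6.11 CPM, 21.3-fold lower (18.6 to 24.4). *Nr1d2* was 4.58-fold lower (47.7 and 10.4 CPM). Other genes of the clock rose: *Arntl* (BMAL1) was at 10.6 and 42.9 CPM, *Npas2* at 6.13 and 22.7, and *Cry1* at 6.80 and 25.04. In all 5 of 10 clock genes fell and 3 rose, and *Per1* (54.4 and 79.7 CPM) and *Per2* (9.99 and 14.1) passed neither limit. In thinned cells *Nr1d1* had a UMI in 25.1% of cells in Uninjured and 1.26% at 1 dpi. *Nr1d1* was also lower in other cells of the same libraries, 2.77-fold in leukocytes and 2.05-fold in *Pax7* cells, and in endothelial cells, with 34 and 2 UMIs, the ratio was 0.030 (0.0035 to 0.117). *Dbp* was 17.6-fold lower in endothelial cells (54 and 6 UMIs). The ratio of the summed clock list was 0.496 in mesenchymal cells, 0.389 in endothelial cells (0.304 to 0.495), 0.898 in *Pax7* cells and 1.47 in leukocytes. *Nr1d1* was at 7.05 CPM at 3 dpi and 52.7 at 7 dpi. The hour at which each muscle was taken is not given in the sources used here, and its part in these values was not tested. The letters ACGTG, searched on both strands as the core of the hypoxia response element, were in the windows of 7 of the 10 clock genes with a promoter (70%), against 21.8% of all genes, and are shown in capitals for both leading genes. The same letters lie within the palindromic E-box CACGTG, the canonical site of BMAL1 and its partners. Neither match shown is part of CACGTG. Whether the matches in the other clock genes are, or whether those shown are variants of the E-box, was not tested.
Nr1d1, chr11:98775378-98775429, - strand: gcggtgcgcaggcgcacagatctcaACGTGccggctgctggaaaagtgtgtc
Dbp, chr7:45704997-45705049, + strand: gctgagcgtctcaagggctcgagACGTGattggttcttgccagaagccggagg

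Matrix and growth factor genes were also found on the lower side. *Sparc*, a collagen-binding matricellular protein, went from 13275 to 4801 CPM, 2.77-fold lower. *Mfap2* and *Mfap4*, which associate with elastic microfibrils, were 4.76-fold (214 and 45.1 CPM) and 5.06-fold lower (143 and 28.2 CPM). *Cpz*, a secreted carboxypeptidase with a Wnt-binding domain, was 11.5-fold lower (46.3 and 4.02 CPM). *Cthrc1* was 5.63-fold lower (138 and 24.5 CPM), but 72.7% of its Uninjured UMIs lay in 1% of cells. When only cells within 2 SD of the mean log10 UMIs and genes of their library were used, *Cthrc1* was level, with a log2 ratio of 0.02. *Tnmd*, a tenocyte gene, was 4.83-fold lower (54.8 and 11.3 CPM), and 1% of cells held 63.96% of its UMIs in Uninjured and 83.0% at 1 dpi. In cells with *Pi16* or *Dpp4* but no *Smoc2* or *Hsd11b1* UMIs, both *Mfap4* and *Tnmd* had a log2 ratio of -0.64, under 2-fold.

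Elastic fibre genes had 3 of 13 down, *Mfap2*, *Mfap4* and *Mfap5* (2437 and 1079 CPM), and none rose. *Fbln2*, at 762 and 1173 CPM, was under 2-fold. Of 14 collagens outside the gate 1 fell, *Col14a1* (444 and 199.8 CPM), and the list median was -0.32. In the IGF axis 4 of 8 fell and none rose, with a median of -1.01. These were the binding proteins *Igfbp6* (3042 and 1191 CPM), *Igfbp7* (1575 and 636) and *Igfbp3* (122 and 40.7) and the growth factor *Igf2* (17.4 and 4.33). *Igf1* was at 428 and 331 CPM. Of 4 secreted Wnt inhibitors *Sfrp2* (439 and 133 CPM) and *Sfrp4* (236 and 109) fell. Matricellular genes went both ways, *Postn* (408 and 135 CPM) and *Sparc* down and *Thbs1* (93.5 and 223) and *Spp1* up. The *Spp1* value rested on few cells, since 39 cells held 79.4% of its UMIs at 1 dpi. Its log2 ratio, 2.04, was 0.89 without the highest 7.5% of Scrublet scores. It was 8.54 without the 1% of cells with the most *Spp1* UMIs. *Prg4*, the lubricin of joint and tendon surfaces, rose from 341 to 1059.7 CPM. Among matrix proteases 3 of 11 rose, *Adamts4*, *Adamts9* and *Mmp19* (28.2 and 73.2 CPM), and the bone-resorbing cathepsin *Ctsk* fell (255 and 108).

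**Figure D4:**
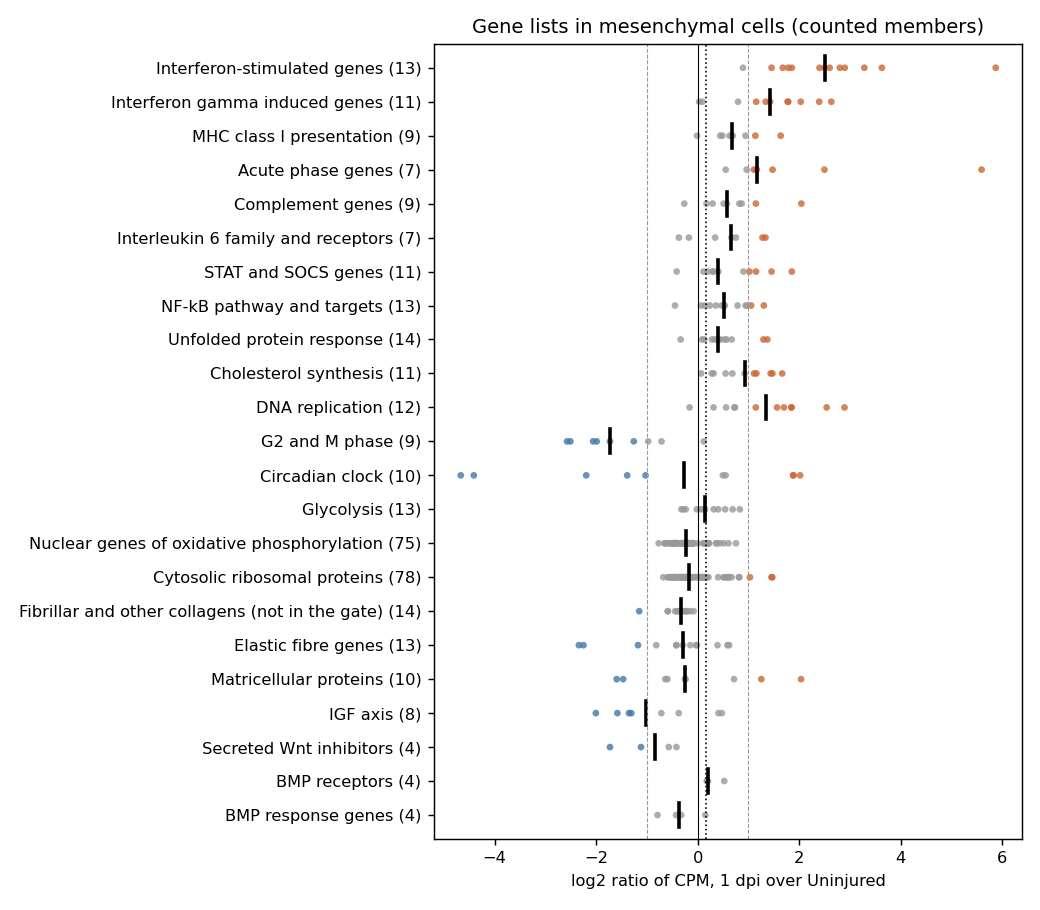
Log2 ratio of CPM at 1 dpi over Uninjured (horizontal axis) for each counted member (points) of 23 gene lists (rows, number of counted members in brackets), with list medians as black bars and the median of all genes, 0.16, as a dotted line; points past 2-fold are orange (higher) or blue (lower). Interferon-stimulated genes have the highest median drawn, 2.50, and G2 and M phase genes the lowest, -1.73.

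The DNA replication list and the G2 and M phase list differed in direction. Of 12 counted DNA replication genes 7 rose and none fell (median 1.36). They included the helicase subunits *Mcm2* (3.48 and 25.9 CPM), *Mcm5* (6.04 and 35.2) and *Mcm6* (12.2 and 43.9), and the sliding clamp *Pcna* (49.1 and 145). Of 9 counted G2 and M phase genes 6 fell and none rose (median -1.73), for example *Ccnb2*, cyclin B2 (15.3 and 2.57 CPM), and *Cdc20*, which starts anaphase (18.1 and 3.18). *Top2a* was at 22.9 and 24.9 CPM, and *Cdkn1a*, the p21 inhibitor, rose from 93.2 to 288. Cells with at least 3 UMIs of the replication list among 2000 were 119 of 9137 (1.30%) in Uninjured and 264 of 3583 (7.37%) at 1 dpi, and those with at least 3 of the G2 and M list were 134 (1.47%) and 42 (1.17%). Cells with at least 1 UMI of the G2 and M list went the other way, 3.87% (3.49 to 4.29) in Uninjured and 5.53% (4.801 to 6.33) at 1 dpi. Both lists together were reached by 0.328% and 0.949% of cells.

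These cell cycle values depended on the gate share. Cells whose gate genes made up 0.5 to 1% of UMIs were 92 in Uninjured and 419 at 1 dpi, those at 1 to 2% were 844 and 1218, and those at 2% or more were 8410 and 2266. In the lowest band the replication list summed to 673 CPM in Uninjured and 1511 at 1 dpi, in the middle band to 495 and 499, and in the highest band to 185 and 254. With the highest band alone the median log2 ratio of the replication list was 0.23, and *Mcm5*, *Mcm6* and *Pcna* were under 2-fold. The G2 and M list was lower at 1 dpi in every band, at 1462 and 333 CPM, 1011 and 74.8, and 129 and 42.9. Few cells carried that list: without the 1% of cells with the most UMIs of each gene its median log2 ratio was -0.19. Interferon-stimulated genes were higher at 1 dpi in every band, at 331 and 3097 CPM in the lowest, 317 and 2552 in the middle and 360 and 1169 in the highest, where the list median was 1.71. Neutrophil markers at 1 dpi were at 296, 203 and 218 CPM in the same bands, and *Pdgfra* had a UMI in 73.5%, 79.8% and 87.9% of the cells. In Uninjured the *Pdgfra* shares were 39.1%, 74.4% and 88.2%. The lowest band differed in other ways too, with Schwann cell markers at 1473 CPM in Uninjured and 80.3 at 1 dpi, and erythroid markers at 836 and 5.25. Its median depth was 3933 and 9532 UMIs, so contrasts within this band compare unlike cells.

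**Figure D5:**
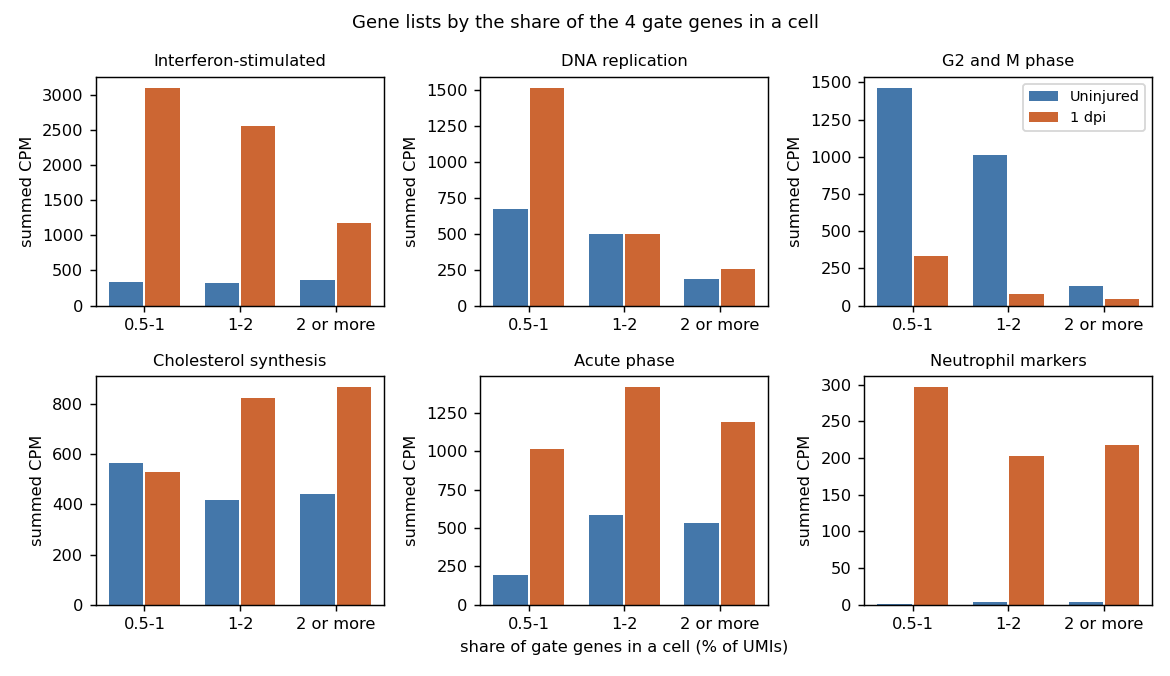
Summed CPM (vertical axes, each from 0) of 6 gene lists in mesenchymal cells of Uninjured (blue) and 1 dpi muscle (orange), by the share of *Col1a1*, *Col1a2*, *Col3a1* and *Dcn* in a cell (horizontal axis, percent of UMIs). Interferon-stimulated and acute phase sums are higher at 1 dpi in each band, whereas the replication sum differs by little in the middle band (495 and 499 CPM).

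Part of the cholesterol synthesis list rose, while no counted gene of the glycolysis or oxidative phosphorylation lists was called. Of 11 cholesterol synthesis genes 5 rose and none fell (median 0.93). *Hmgcs1*, which makes HMG-CoA, was at 44.2 and 140.3 CPM, and *Idi1*, which isomerises isopentenyl diphosphate, at 34.01 and 92.2. In cells thinned to 2000 UMIs at least 5 UMIs of the list were found in 2.07% of cells in Uninjured and 8.62% at 1 dpi. None of 13 glycolysis genes, 7 hypoxia targets or 75 nuclear genes of oxidative phosphorylation passed 2-fold (medians 0.14, -0.02 and -0.23). Of 78 cytosolic ribosomal protein genes 3 rose, *Rpl23a*, *Rps15* and *Rpl13a*, which have many near-identical copies, so their counts are uncertain. In the unfolded protein response 2 of 14 rose, *Calr* (470.2 and 1156 CPM) and *Hyou1* (18.4 and 47.7).

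Some of the most abundant RNAs also differed. *Gm42418*, a locus that overlaps ribosomal RNA sequence, went from 12596 to 52106 CPM, and was at 13617 and 48935 CPM in B cells of the same libraries. Leaving it out of the totals gave 452 higher and 160 lower genes. *Ly6a* (Sca-1), a surface marker of these cells, was at 1965 and 3650.4 CPM, and *Ifitm3*, an interferon-inducible membrane protein, at 1575 and 3163, 2.01-fold, which is at the limit and passed under it in several other settings. The stress-induced ubiquitin gene *Ubb* was 2.86-fold lower (3487 and 1221 CPM). Of 15 immediate early genes, which tissue digestion is known to induce, *Atf3* (2176 and 706 CPM), *Jund* and *Fos* (7578 and 3683) fell, *Nr4a1* rose (129.6 and 342), and 11 passed neither limit.

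Counts for BMP signalling, the pathway that the transgene feeds, and for TGF-beta signalling stand beside 4.32% of all counted genes higher and 2.07% lower. With so few genes a list they cannot be told apart from these shares. *Bmp4* was at 111 CPM in Uninjured and 97.9 at 1 dpi. Of 11 BMP ligands and antagonists 1 rose, *Bmper*, an extracellular regulator (65.2 and 136 CPM). None of 4 receptors passed 2-fold, with *Acvr1* at 23.6 and 26.9, nor did any of 4 response genes, with *Id1* at 20.9 and 15.6 and *Id3* at 528 and 306. Of 12 TGF-beta and activin genes *Inhba*, the activin A subunit, fell (50.2 and 18.04 CPM), but its log2 ratio was 0.25 in cells within 2 SD of the mean depth of their library. *Fgf18* (111 and 29.3 CPM) and *Pdgfa* (14.1 and 5.36) fell among 8 other growth factors.

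Genes of mesenchymal subtypes and lineages were followed too. The 6 genes by which the study described mesenchymal stem cells were chosen on these samples and are no independent evidence. Among them 2 rose, *Ly6e* (206 and 1144 CPM), which is also interferon-inducible, and *Cxcl12*. Of 10 adventitial progenitor genes *Pi16* (1519 and 734 CPM) and *Mfap5* fell, and none of 10 interstitial fibroblast genes passed 2-fold. The interferon-stimulated sum was higher at 1 dpi within both kinds of cell, 459 and 2942 CPM in cells with *Pi16* or *Dpp4* UMIs only and 328 and 1668 CPM in cells with *Smoc2* or *Hsd11b1* UMIs only. The former were 1351 cells in Uninjured and 488 at 1 dpi, the latter 2839 and 1535. Cells with UMIs of both kinds, 5006 and 1763, were in neither group. Other contrasts changed within the 2 groups. Of 122 called genes followed in cells with *Pi16* or *Dpp4* UMIs only, 15 were under 2-fold, *Adamts9*, *Mfap4*, *Tnmd* and *Cdkn1a* among them. *H19*, *Acta2* and *Inhba* turned sign there. The 15 include *Pi16*, but these cells were picked by its UMIs, so its value there says nothing about a change. Of 121 followed in cells with *Smoc2* or *Hsd11b1* UMIs only, 11 were under 2-fold. None of 6 adipogenic genes passed. Of 4 chondrogenic genes 1 rose, *Col11a1* (6.17 and 16.6 CPM), with *Sox9* at 30.2 and 35.9. Of 3 counted osteogenic genes *Alpl* (22.4 and 45.8 CPM) and *Bglap* rose. *Bglap*, osteocalcin, had 20 UMIs in Uninjured and 11067 at 1 dpi, but 7 cells, 0.179% of the gated cells, each with at least 20 *Bglap* UMIs, held 99.3% of them, with 6847 in 1 cell. *Bglap2* is a near-identical neighbour, so the split of reads between them is uncertain. No such cell was found in Uninjured, and all other gated cells at 1 dpi were at 2.13 CPM. The same 7 cells held 46.1% of the *Ibsp* UMIs, 39.2% of the *Spp1* UMIs and 16.2% of the *Col1a1* UMIs at 1 dpi, and without them *Alpl* and *Col11a1* were under 2-fold.

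The same lists were followed to the later libraries, again with 1 library each. The gated cells themselves differed at 7 dpi. Chondrogenic genes summed to 81.6 CPM in Uninjured and 8963 at 7 dpi, osteogenic genes to 101 and 2568. Mesenchymal genes outside the gate summed to 7968 and 3182 CPM, so levels over time need not follow the same kind of cell. Summed over interferon-stimulated genes, mesenchymal cells held 355 CPM in Uninjured, 1934 at 1 dpi, 729 at 3 dpi and 349 at 7 dpi. Acute phase genes were at 534, 1231, 1220 and 383 CPM, and replication genes at 227, 540, 552 and 405. The G2 and M phase list, low at 1 dpi (248 and 101 CPM), was at 852 CPM at 3 dpi and 708 at 7 dpi. The clock list was at 479, 238, 164 and 208 CPM, and the IGF axis at 7473, 4368, 3674 and 4398.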

How the data were processed

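Single-cell RNA sequencing libraries (10x Genomics) were made from 4 pools of tibial muscle, of which Uninjured and 1 dpi were compared and 3 dpi and 7 dpi gave levels only. Per the labels, the authors used Cell Ranger 5.0.0 with the STAR aligner to map reads and count UMIs, with down-sampling of reads as required, and the submitters' processing notes name mm10 and Seurat 3.1.1. The deposited values used here were raw UMI counts of 32285 genes per barcode, read from 1 matrix per library, and whether down-sampling preceded them is not given in the sources used here.

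Counts of the gated cells were summed per library and divided by their total (CPM). Differences were ratios of CPM with exact conditional binomial intervals, levels had exact Poisson intervals and shares Clopper-Pearson intervals, at 95%. A gene was called at 2-fold with at least 10 CPM in the higher library, and 0 UMIs were set to a floor of 3 in ratios. The genes that define the gate were not counted. Leading genes were the 15 largest and smallest ratios among genes with at least 20 CPM in the higher library, 10 UMIs in the lower, a UMI in 5% of cells, and a CPM no lower than in leukocytes, and abundant genes the 5 largest differences in each direction. Of each gene list up to 4 members were named by ratio, level or mention by the study. Some further members were named after their values were seen, and a few that the list counts include are not reported here. The cells, lists and tests were chosen with earlier results of these data known. For shares and scores per cell, cells were thinned to 2000 UMIs, which left out 209 and 320 shallower cells. Leukocytes had a *Ptprc* UMI, and B cells were those leukocytes that also had a *Cd79a* UMI, so B cells are a part of the leukocytes. Endothelial and *Pax7* cells (37 and 70, 183 and 95 cells) were gated by *Cdh5* and *Pax7* UMIs. All these classes had a gate share under 0.5%. No doublets were removed in the main comparison, and removing the 7.5% of barcodes with the highest Scrublet scores was an alternative. Gene positions came from GENCODE M21 (GRCm38; 32158 of the IDs matched), and promoter windows from RefSeq (GRCm38.p6), in which 7 motifs were searched. Scripts were tested on simulated counts and ran in Python 3.11.15 with numpy 2.4.6, scipy 1.17.1, pandas 2.3.3 and scanpy 1.11.5.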

Additional observations from a re-analysis of the deposited data

Results flagged for a closer look

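Several gene lists moved one way in mesenchymal cells and the other way in another cell class of the same libraries. These differences were not tested, because each class comes from the same pool a side. The ratios compare summed CPM at 1 dpi with Uninjured, and intervals cover the counting of UMIs only.

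Acute phase genes, 2.31-fold higher in mesenchymal cells, had a ratio of 0.638 in B cells and 0.586 in endothelial cells. The B cell ratio rests on few cells: in cells thinned to 2000 UMIs, 5 of 121 B cells in Uninjured had a UMI of the list and 1 had at least 3. By share of cells the list went up in B cells, from 4.13% to 11.3% with a UMI. Circadian clock genes, at 0.496 in mesenchymal cells, were at 1.47 in leukocytes and 1.56 in B cells, and at 0.389 in endothelial cells. DNA replication genes were at 2.38 in mesenchymal cells and 0.694 in endothelial cells (0.5004 to 0.966). G2 and M phase genes were at 0.407 in mesenchymal cells, 2.30 in leukocytes and 1.72 in B cells. The IGF axis was at 0.585 in mesenchymal cells, 1.10 in leukocytes and 1.61 in *Pax7* cells. Immediate early genes were at 0.676 in mesenchymal cells, 1.07 in endothelial cells and 1.31 in *Pax7* cells. The endothelial values rest on 37 and 70 cells, the *Pax7* values on 183 and 95, and the B cell values on 154 and 1374.

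A signal also appeared outside the mesenchymal cells: leukocytes of the 1 dpi library held *Ifi202b* at 84.1 CPM (81.2 to 87.1), where the Uninjured library had 0 UMIs of the gene over all barcodes. *Pax7* cells of the 1 dpi library had 1 *Ifi202b* UMI.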

How the results depend on the processing

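The gate, the scaling and the filter on low values were changed in turn. No paired analysis was possible because each condition had 1 library. Counts of called genes stayed between 351 and 452 higher and 149 and 187 lower, except that 249 genes were higher and 271 lower when ratios were divided by their median, that a limit of 50 CPM left 136 higher and 80 lower, and that no limit gave 2867 and 1344. The gate at 1 dpi held 2266 cells at a share of 2% and 1609 with 0 UMIs of 11 further markers. At a share of 2%, 243 of the 380 higher and 131 of the 182 lower genes were called again. Of 123 called genes tracked singly, at most 18 dropped under 2-fold in a setting within mesenchymal cells. Signs turned for *Cthrc1* (log2 ratio 0.019) and *Inhba* (0.25) within 2 SD of log10 UMIs and genes. They also turned for *H19* (0.037), *Acta2* (0.38) and *Inhba* (0.58) in cells with *Pi16* or *Dpp4* UMIs only. In *Pax7* cells, an alternative chosen after seeing the data, they turned for *Mfap4* (0.071), *Bmper* (-0.51), *Col14a1* (0.66), *Igf2* (0.33), *Postn* (1.18), *Serpine2* (-0.36) and *Spp1* (-1.43). *Mfap4* rests on 4 and 2 UMIs there. *Wfdc1* (0.33) turned only through the floor of 3, since it had 5 UMIs in Uninjured and 0 at 1 dpi. Whether the floor also made the equal value of *Igf2* is not shown here. The settings without *Bglap* cells, without *Gm42418* and without the 1% of cells with the most UMIs of a gene were also chosen after seeing the data. The G2 and M phase median ran from -2.57 to -0.19 and the DNA replication median from 0.23 to 1.57, while that of interferon-stimulated genes stayed between 1.71 and 2.73. The causes were not tested.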

Other observations

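Further lists are given by their counts, where 4.32% of all counted genes were higher and 2.07% lower. Glucocorticoid response genes had no member past 2-fold of 7, with *Tsc22d3* (GILZ), a classic target, at 188 CPM in Uninjured and 367 at 1 dpi and *Fkbp5* at 44.8 and 88.8, and a list median of 0.55. The metallothioneins differed from each other, *Mt1* at 3893 and 2453 CPM and *Mt2* at 1517 and 2155, and none of 6 genes of that list passed, nor any of 5 of iron and haem handling. Of 7 NRF2 targets 1 rose, *Gclc*, which limits glutathione synthesis (15.9 and 42.6 CPM). Of 8 p53 targets *Cdkn1a* rose and *Phlda3* (74.9 and 27.6 CPM) and *Bbc3* (13.6 and 6.14) fell. Of 9 heat shock genes *Hspb1* fell (584 and 197 CPM). Of 9 cyclins and inhibitors of G1 *Cdkn1a* rose and *Cdkn1c* (p57) fell (255 and 98.5 CPM). Of 11 actin and SRF targets *Acta2*, *Myl9* and *Tagln* fell, which are also smooth muscle genes. The fall of *Acta2* and *Tagln* rested on few cells: in Uninjured 93 cells held 90.6% and 89.4% of their UMIs, without the 1% of cells with the most UMIs their log2 ratios were -0.78 and -0.27, and in thinned cells -0.18 and -0.022. *Myl9* stayed past 2-fold in these settings (-2.11 and -1.80).

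None of 13 ribosome biogenesis genes and none of 8 small proteoglycans passed. Of 7 protease inhibitors *Serpine2* rose (268 and 536 CPM). Of 9 interleukin 1 and TNF receptor genes *Tlr3*, a sensor of double-stranded RNA, rose (8.99 and 18.5 CPM). Of 6 prostaglandin genes *Ptger4* rose (8.77 and 17.7 CPM), and *Ptgs2* was at 186 and 291. Of 6 limb position genes *Hoxa9* fell (17.98 and 8.65 CPM).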
